A study of Mus musculus with 6 samples.

Results

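The coats and lipases of the lipid droplet were followed in mouse hind leg muscle as 10 genes of the 16759 in the deposited table. The rule took the rows whose symbol was Plin2, Plin3, Plin4, Plin5, Pnpla2, Abhd5, Lipe, Mgll, G0s2 or Hilpda, and all 10 were found by name. The animals were male C57BL/6J mice aged 8 weeks at the start, with no genetic change in either group. The EX group (n = 3) ran on an electric treadmill for 60 min on 5 days of each week over 6 weeks, 22 km per mouse in all, and muscle was taken 24 h after its last run. The Con group (n = 3) did not train on the treadmill. RNA of each mouse gave 1 library, from a small piece of hind leg muscle after perfusion with saline and removal of intermuscular fat, and the individual muscle is not named.

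A muscle fibre keeps neutral fat in droplets beside its mitochondria. Perilipins (the Plin genes) coat the droplet and set how far lipases can reach the fat. Adipose triglyceride lipase (Pnpla2) removes the first fatty acid of a triglyceride, hormone-sensitive lipase (Lipe) acts mainly on the diglyceride that is left, and monoglyceride lipase (Mgll) on the monoglyceride. The coactivator Abhd5 (CGI-58) switches Pnpla2 on, while the small proteins G0s2 and Hilpda bind Pnpla2 and inhibit it. Endurance training is known to change the amount and the turnover of this store in muscle.

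In the EX muscle, the inhibitor transcript G0s2 rose 1.83-fold, the coat transcript Plin4 rose 1.23-fold and the lipase transcript Pnpla2 fell to 0.911 times its Con level. The other 7 transcripts did not pass the test, and of these Plin2 came nearest. Counts per gene, estimated by the authors and rounded to whole numbers, were compared by edgeR's quasi-likelihood test, with p-values adjusted by Benjamini-Hochberg over 10883 genes and called under 0.05. Of the 10 genes, 2 were called higher and 1 lower, where 9.11% of all genes tested were called higher and 8.8% lower. The median change of the 10 genes was -0.0066 on the log2 scale and that of all genes tested was -0.00093. As scaled counts (CPM, defined below), the values of the EX and Con mice did not overlap for 4 of the 10 genes and for 33.7% of all genes tested. With 3 mice against 3, an exact two-sided permutation test of any 1 gene cannot go under p = 0.1.

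**Figure D1:**
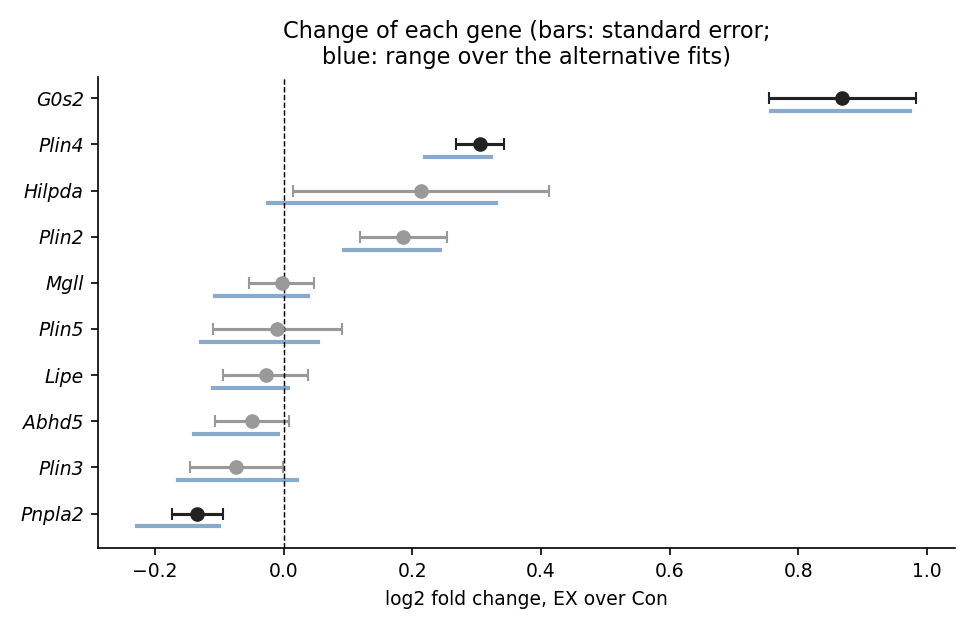
Change of the 10 genes on the log2 scale, EX over Con, with black points for those past the threshold, grey points for the others, bars for 1 standard error and a blue line for the range over the alternative fits. G0s2 (0.87), Plin4 (0.30) and Pnpla2 (-0.13) keep 1 sign over all fits, as do Plin2 and Abhd5, which were not called. The blue lines of Plin3, Plin5, Lipe, Mgll and Hilpda cross 0.

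Total counts per library ranged from 13845362 to 16240431, and no library stood apart, with correlations of log2 levels of at least 0.9885 between any 2 libraries. Levels are given as CPM, counts scaled to the library total after TMM normalisation (edgeR's trimmed mean of M values). The 9 fast fibre markers, which mark skeletal muscle, summed to between 166081 and 172855 CPM in Con and between 180175 and 189346 in EX. Of these, 5 were higher and 1 was lower in EX. The 8 slow fibre markers were all higher and had a median log2 change of 3.87. Myh7, the slow myosin heavy chain, went from 1.005 ± 0.163 to 102.2 ± 7.38 CPM (SD, n = 3), and Tnni1, Tnnc1, Tnnt1 and Myl2 changed by 4.84, 4.84, 4.26 and 3.48 on the log2 scale. The sum of all 8, from 141.5 to 148.2 CPM in Con against 412.0 to 442.1 in EX, also holds Myl3, Tpm3 and Atp2a2, which made up most of it in Con and changed by 0.40, 0.58 and 1.13. Of 7 tested macrophage markers 6 were higher, and the 10 listed had sums of 45.5 to 49.8 CPM in Con against 81.2 to 87.5 in EX. Of 10 endothelial markers 5 were lower and 1 was higher, with sums of 826.4 to 841.1 CPM in Con and 731.0 to 750.1 in EX. These shifts go with the groups, and their part in the results was not tested. In bulk muscle, fewer cells of a type and less RNA per cell cannot be told apart.

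Levels of different genes were compared per length, as TPM, in which each count is divided by transcript length and scaled to the library. In Con, Pnpla2 led with 180.9 ± 4.53 TPM (SD, n = 3) and Plin4 followed with 100.2 ± 3.30. Behind them, Mgll (24.6 ± 1.38), Plin2 (24.0 ± 0.611), Abhd5 (22.7 ± 1.36) and Plin3 (22.5 ± 2.60) each overlapped the next in the order, the last of them G0s2 (20.2 ± 1.40), which did not overlap Lipe. Lipe (16.4 ± 0.698), Plin5 (10.98 ± 1.56) and Hilpda (5.54 ± 0.560) stood apart at the bottom. In EX the order was the same at both ends, but G0s2 moved from rank 7 to rank 3, with 34.6 ± 5.75 TPM and no overlap with Plin2 at rank 4.

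**Figure D2:**
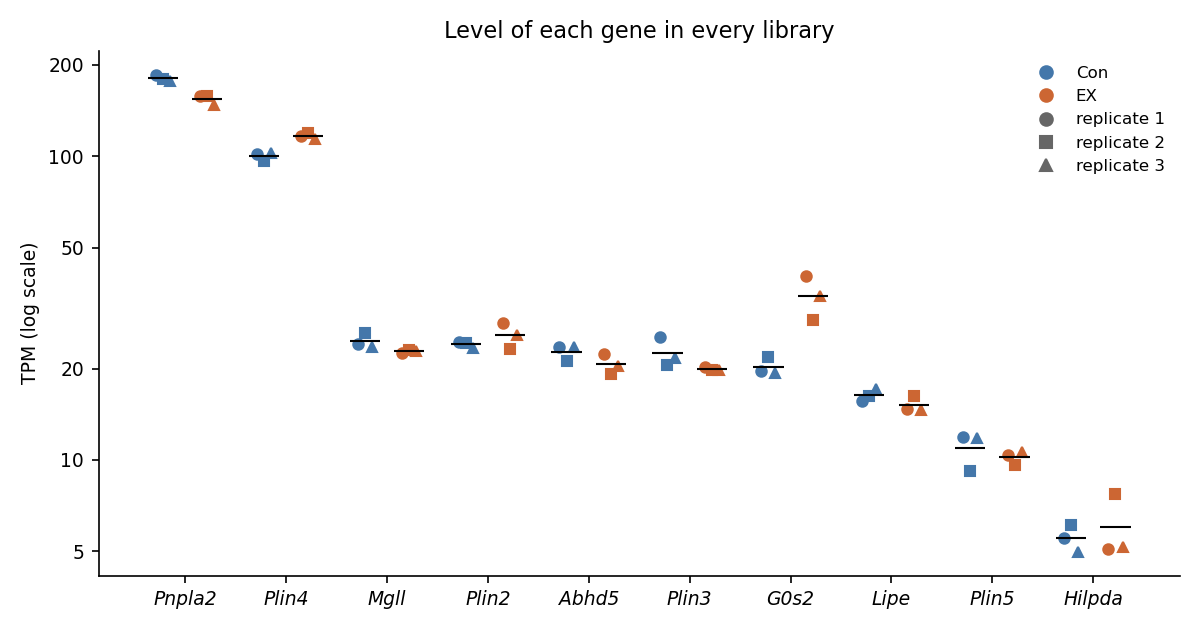
TPM of each gene in every library on a log scale, Con in blue and EX in orange, with a marker shape for each replicate number and a black line for the group mean. Pnpla2 and Plin4 lie above 90 TPM in every library, and G0s2 is the gene whose EX libraries (28.9 to 40.4 TPM) sit farthest above its Con libraries (19.3 to 21.8 TPM).

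The inhibitors were considered first. G0s2 (gene 14373) was counted 97, 121 and 106 times in Con replicates 1 to 3, against 236, 173 and 205 times in EX replicates 1 to 3. In CPM it stood at 6.96, 7.70 and 6.65 CPM in Con and at 14.9, 11.02 and 13.02 CPM in EX. Every EX mouse lay above every Con mouse, and the EX mice were spread more widely than the Con mice. The log2 fold change was 0.87 (standard error 0.11, adjusted p = 2.3e-06 with edgeR), which ranked 91 by size among the genes tested. Leaving out any 1 library kept it between 0.76 and 0.97. Hilpda (gene 69573), the hypoxia-inducible inhibitor, was counted 35, 43 and 35 times in Con, against 38, 59 and 39 times in EX. Only EX replicate 2 exceeded the Con range, and the groups overlapped. Its fold was 1.16 with a 95% interval of 0.885 to 1.52 (adjusted p = 0.508 with edgeR), and without EX replicate 2 the log2 change was -0.024.

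Of the lipases, Pnpla2 (gene 66853) had 292.8, 281.9 and 274.8 CPM in Con and 259.9, 268.0 and 245.8 CPM in EX. All EX values lay below all Con values, though the gap between Con replicate 3 and EX replicate 2 was small beside the spread in each group. The change was -0.13 on the log2 scale (standard error 0.04, adjusted p = 0.0169 with edgeR). Without EX replicate 3 it was -0.10 (adjusted p = 0.165 with edgeR) and no longer past the threshold. With limma on log2(TPM + 0.1) it was -0.23, in a fit where the median of all genes was -0.091. Lipe (gene 16890) had 26.7, 27.4 and 29.0 CPM in Con and 25.9, 29.4 and 26.3 in EX. Mgll (gene 23945) had 54.8, 58.5 and 52.4 CPM in Con and 54.1, 55.7 and 55.4 in EX. Neither lipase separated the groups. The 95% interval of the fold was 0.896 to 1.07 for Lipe and 0.931 to 1.07 for Mgll. The coactivator Abhd5 (gene 67469) had 46.1, 41.4 and 45.8 CPM in Con and 45.7, 40.6 and 42.5 in EX, with a fold of 0.967 (95% interval 0.894 to 1.05).

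Set against the lipase within each library, which needs no scaling between libraries, the inhibitor gained. The ratio of G0s2 to Pnpla2 in TPM was 0.105, 0.121 and 0.109 in the Con mice and 0.256, 0.183 and 0.234 in the EX mice. Its mean went from 0.112 ± 0.00841 (SD, n = 3) to 0.224 ± 0.0372, and the groups did not overlap. The ratio of Abhd5 to Pnpla2 was 0.126 ± 0.00764 in Con and 0.134 ± 0.0105 in EX and that of Hilpda to Pnpla2 was 0.0306 ± 0.00295 and 0.0388 ± 0.00899, both with overlapping groups. These ratios describe transcripts of members chosen with results known, and no test was made of them.

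**Figure D3:**
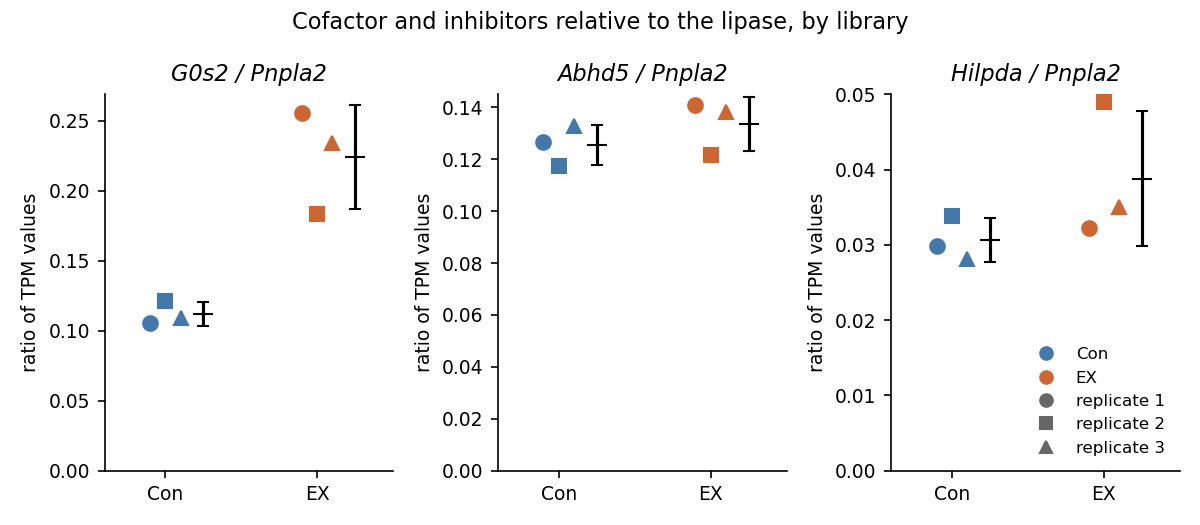
Ratio of TPM values in every library for G0s2, Abhd5 and Hilpda relative to Pnpla2, with axes from 0, Con in blue, EX in orange and black bars for the mean and SD of 3 mice. The EX mice lie above the Con mice for G0s2 (0.183 to 0.256 against 0.105 to 0.121), while the groups overlap for Abhd5 and Hilpda.

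Among the coats, Plin4 (gene 57435), a perilipin with a long repeat region that is abundant in fat and muscle, had 414.7, 388.7 and 412.5 CPM in Con and 493.2, 520.3 and 488.0 CPM in EX. The groups were well separated, with the lowest EX value far above the highest Con value relative to the spread. The log2 fold change was 0.30 (standard error 0.04, adjusted p = 7.5e-07 with edgeR), and over all alternatives it ranged from 0.22 to 0.32. Plin2 (gene 11520), the coat found in most cell types, had 26.0, 25.8 and 24.5 CPM in Con and 31.3, 26.6 and 28.8 in EX. In CPM the EX values lay above the Con values, by little for EX replicate 2. In TPM, EX replicate 2 (23.21) lay below all Con libraries (23.32 to 24.42), so the groups overlapped. Its fold of 1.14 (95% interval 1.04 to 1.25) did not pass the threshold (adjusted p = 0.0562 with edgeR), but it did without EX replicate 2 (adjusted p = 0.0242) and without Con replicate 1 (adjusted p = 0.0488). In EX, replicate 1 was highest and replicate 2 lowest for both Plin2 and G0s2, whereas Plin4 and Hilpda were highest in replicate 2.

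Plin5 (gene 66968), the coat of oxidative tissue that holds droplets to mitochondria, had 13.3, 10.1 and 12.9 CPM in Con and 12.0, 11.5 and 12.4 in EX. All EX values fell within the Con range, and the fold was 0.993 (95% interval 0.867 to 1.14). Plin3 (gene 66905), a coat of small droplets, had 31.9, 25.5 and 26.6 CPM in Con and 26.5, 26.7 and 26.2 in EX. Con replicate 1 alone stood high, and the fold was 0.950 (95% interval 0.862 to 1.05). As shares of the summed TPM of Plin1 to Plin5, Plin4 went from 63.3% ± 1.26 (SD, n = 3) in Con to 67.1% ± 1.39 in EX and Plin3 from 14.2% ± 1.09 to 11.5% ± 0.0640, both without overlap. Plin2 held 15.2% ± 0.812 and 14.8% ± 1.31, Plin5 held 6.92% ± 0.728 and 5.87% ± 0.324, and Plin1, which is no member, stayed under 1% in every library. The sum of the perilipins was 158.3 ± 6.98 TPM in Con and 173.9 ± 2.63 in EX.

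**Figure D4:**
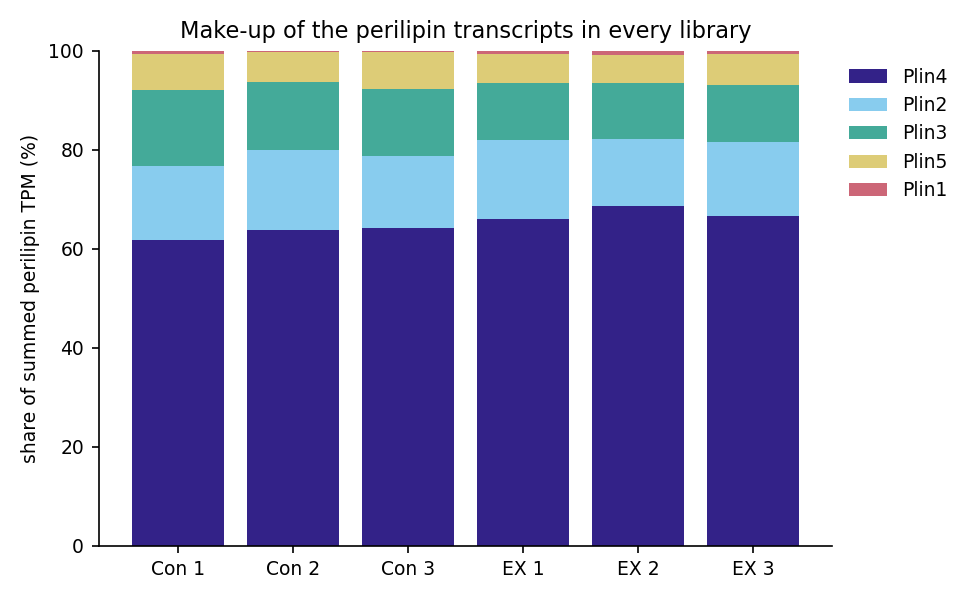
Share of each perilipin in the summed TPM of Plin1 to Plin5, as stacked bars from 0 to 100% for each of the 6 libraries. Plin4 takes 61.9% to 64.2% of the Con bars against 66.1% to 68.7% of the EX bars, and Plin1 is the thin band at the top.

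The sequence before the start of the 3 called genes is given because they are the members that moved, as RefSeq has it on GRCm38.p6 and 5′ to 3′. The windows are chr1:193273189-193273337, minus strand for G0s2, chr17:56109783-56110032, minus strand for Plin4 and chr7:141454938-141455187, plus strand for Pnpla2. That of G0s2 is shortened where an exon of Lamb3, annotated on the other strand, begins. In GENCODE M21 the first exon of the gene itself starts earlier than in RefSeq and covers the last 29 bases of the G0s2 window and the last 21 of the Plin4 window. Capitals mark the motifs found, and those of G0s2 and Plin4, each 18 bases before the RefSeq start, lie within these exon stretches.
G0s2: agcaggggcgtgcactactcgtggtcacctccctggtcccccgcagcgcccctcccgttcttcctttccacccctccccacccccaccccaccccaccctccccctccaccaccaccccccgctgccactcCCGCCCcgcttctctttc
Plin4: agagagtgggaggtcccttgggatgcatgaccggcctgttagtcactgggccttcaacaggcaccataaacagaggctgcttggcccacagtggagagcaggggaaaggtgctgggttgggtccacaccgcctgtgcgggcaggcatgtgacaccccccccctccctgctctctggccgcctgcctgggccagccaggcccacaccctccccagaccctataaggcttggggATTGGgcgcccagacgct
Pnpla2: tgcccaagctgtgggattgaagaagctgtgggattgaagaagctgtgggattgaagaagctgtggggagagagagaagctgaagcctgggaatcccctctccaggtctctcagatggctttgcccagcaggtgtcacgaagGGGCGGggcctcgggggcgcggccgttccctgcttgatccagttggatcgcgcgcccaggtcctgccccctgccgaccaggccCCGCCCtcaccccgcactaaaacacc
Letters were searched on both strands of the 250 bases before each start. The E box was CACGTG, and the hypoxia response core was ACGTG, which lies within that E box. The nuclear receptor element was searched as its core, AGGTCA. The cAMP response element was TGACGTCA. The TATA box was searched as TATAAA. For the CCAAT box the letters are its name. The GC box was GGGCGG. A GC box was found in the windows of G0s2 and Pnpla2 and is held by 32.7% of 32851 promoter windows in the same table. The CCAAT box of Plin4 is held by 33.9% of them. The E box, held by 6.02%, and the nuclear receptor core, held by 14.0%, were in none of the 3 windows, which says only that these letters are not there. All 10 genes had a window in the table, and the nuclear receptor core was found in those of Plin2, Plin5 and Abhd5, none of which were called.

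Because G0s2 and Plin4 are also abundant in fat cells, markers of that cell type were set beside them. Of 13 fat cell markers all were in the table and 9 passed the filter and were tested, of which 5 were higher and 1 was lower, with a median of 0.82 on the log2 scale. The pathway lists described further on also hold Plin1, Cidec, Lpl, Adrb3 and Pparg of these. Adipoq (adiponectin) rose from 1.43 ± 0.353 to 3.32 ± 0.435 CPM (SD, n = 3), Cfd (adipsin) from 10.2 ± 0.491 to 25.1 ± 1.40 and Cidec, a droplet fusion protein of fat cells, from 1.59 ± 0.362 to 4.55 ± 0.920. Retn (resistin) and Pck1 rose by 1.55 and 0.82 on the log2 scale. The marker called lower was Lpl, which went from 485.7 ± 17.4 to 368.8 ± 16.1 CPM. Those not called were Thrsp (0.19), Pparg (-0.12) and Fabp4 (-0.091). Of the markers under the filter, Plin1, the coat of fat cell droplets, was counted 15, 8 and 6 times in Con, against 18, 30 and 22 times in EX. Lep (leptin) was counted 1, 2 and 0 times in Con, against 6, 11 and 9 times in EX, and Acvr1c 0, 1 and 1 times in Con, against 4, 4 and 6 times in EX. In the fit without the filter Plin1 and Lep passed the threshold (adjusted p = 0.00901 and 0.00375 with edgeR), and Acvr1c and Adrb3 did not (adjusted p = 0.0624 and 0.432). The summed level of all 13 went the other way, with 725.2 to 781.4 CPM in Con against 634.3 to 661.3 in EX, since Lpl and Fabp4 make up most of it. Within EX, replicate 1, the highest for G0s2, was also the highest for Adipoq, Retn, Lpl and Pparg. Replicate 2, the highest for Plin4 and the lowest for G0s2, was the highest for Cidec, Plin1, Lep, Pck1 and Thrsp, and replicate 3 for Cfd, Fabp4, Adrb3 and Acvr1c. Lipe, which fat cells express strongly, had a fold of 0.981 and stood at a mean of 27.7 CPM in Con, where Adipoq stood at 1.43. Of 4 brown fat markers, 3 were in the table and none passed the filter, with a summed level of 2.41 to 3.20 CPM in Con and 2.02 to 2.73 in EX. In the fit without the filter Elovl3 was called lower (adjusted p = 0.0454 with edgeR), and Cidea and Dio2 were not called. Elovl3 was counted 6, 8 and 5 times in Con, against 3, 1 and 0 times in EX. The part of fat cells in the rise of G0s2 and Plin4 was not tested.

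**Figure D5:**
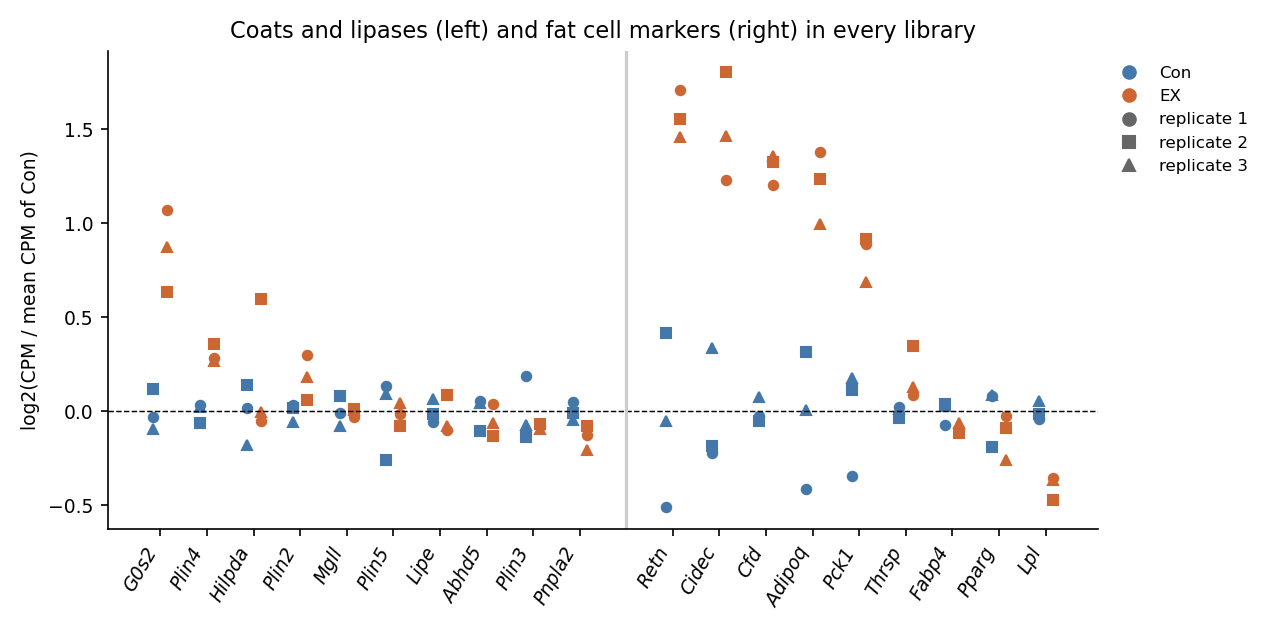
Level of each gene in every library as log2 of its CPM over the Con mean, with the 10 droplet genes on the left, the 9 tested fat cell markers on the right, Con in blue, EX in orange and a marker shape for each replicate number. Retn, Cidec, Cfd, Adipoq and Pck1 are higher in all EX libraries, as G0s2 and Plin4 are, while Lpl is lower in all of them (log2 change -0.40) and Lipe, Mgll and Fabp4 lie near 0.

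Other genes of the pathway were read from 6 lists that leave the members out. They hold 117 genes, of which 114 were in the table and 94 were tested, and 8 were called higher and 17 lower. For these lists together and for each list below, the shares over all genes tested were 9.11% called higher and 8.8% called lower. With totals that leave out the 20 most abundant genes in place of TMM, the split was 5 higher and 30 lower, and with limma on log2(TPM + 0.1) it was 4 and 38. All genes tested moved the same way under these settings, from 991 higher and 958 lower to 772 and 1259 and to 340 and 1684. In droplet formation and other coats, 3 of 8 tested genes were higher and none was lower. Beside Cidec, these were Rab18, a small GTPase of the droplet surface, at 123.5 ± 4.03 CPM in Con and 136.5 ± 6.73 in EX (log2 change 0.14, adjusted p = 0.0220 with edgeR), and Fitm1, a droplet-forming protein of muscle, with 0.13 (adjusted p = 0.0440). Fitm1 was named after its values were seen. In TPM the groups overlapped for both Rab18 and Fitm1.

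Of 14 tested genes of triglyceride synthesis, 1 was higher and 1 lower, with a list median of -0.030. Gpd1, which makes glycerol 3-phosphate, rose from 689.8 ± 15.3 to 790.0 ± 13.8 CPM. Gpam, the mitochondrial enzyme that adds the first acyl chain to it, fell from 240.2 ± 1.28 to 201.8 ± 3.18 CPM (log2 change -0.25, adjusted p = 1.1e-05 with edgeR). Among 13 other lipid hydrolases, 2 were higher and 3 lower, with a median of -0.0050. Ces1d, a carboxylesterase that can hydrolyse triglyceride, rose by 0.34 on the log2 scale and the monoglyceride hydrolase Abhd6 by 0.31. Lpl, which splits the triglyceride of lipoproteins at the capillary wall, changed by -0.40 and Pnpla7, a lysophospholipase related to Pnpla2, by -0.20. In the same direction, Gpihbp1, the endothelial anchor of Lpl and named after its values were seen, changed by -0.19.

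In the control of lipolysis, 1 of 16 tested genes was higher and 2 were lower, with a median of 0.0051. Prkaca, a catalytic subunit of the kinase that phosphorylates perilipins and Lipe, rose from 103.5 ± 0.651 to 115.4 ± 3.44 CPM. The natriuretic peptide receptor Npr1 and the cGMP-dependent kinase Prkg1, which form another route to lipolysis, changed by -0.28 and -0.42 on the log2 scale. Of 29 tested PPAR receptors, partners and responsive genes, 1 was higher and 6 were lower, with a median of -0.083. Ppara itself went from 19.5 ± 0.699 to 13.7 ± 0.250 CPM (adjusted p = 1.4e-05 with edgeR) and Fabp3, a fatty acid carrier of muscle, from 334.7 ± 37.2 to 265.8 ± 21.3. The exception was the mitochondrial carrier Ucp3, with a log2 change of 0.49. Of 14 tested hypoxia-responsive genes, a class to which Hilpda also belongs, none was higher and 5 were lower, with a median of -0.22. Pfkfb3, which makes the activator of phosphofructokinase, went from 1273 ± 24.6 to 943.2 ± 21.7 CPM and Adm (adrenomedullin) changed by -0.79 with overlapping groups.

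The genes whose pattern over the 6 libraries was most like that of G0s2, each centred on its own mean, were Tnmd, Shmt1 and Fosl2, with root mean square differences of 0.0881, 0.103 and 0.106 in log2 CPM. For Pnpla2 they were Specc1l, Vps26b and Thtpa, with differences of 0.0159, 0.0175 and 0.0177, and none of these 3 passed the threshold. Counts of all 10 members were whole numbers in every library. Since strand use in counting is not stated, reads of Abhd5, Lipe and Mgll cannot be told apart from those of transcripts annotated on the other strand, which share 16.0%, 15.6% and 3.29% of their exon bases, and Plin4 shares 0.294% with Hdgfl2. For G0s2, Pnpla2, Plin2, Plin3, Plin5 and Hilpda no exon base was shared.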

How the data were processed

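Total RNA of 6 muscle samples was sequenced as paired-end libraries on the DNBseq platform. The methods name read filtering and alignment by HISAT against GRCm39, while the submitters' processing notes name GRCm38.p6, cutadapt, featureCounts and MultiQC, so the build behind the counts is not settled. Each gene has an estimated count, an FPKM and a TPM value per library, as deposited by the authors. A further 6 columns of group means were not used here. Groups were taken from the treatment labels.

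Estimated counts were rounded and fitted with edgeR 4.0.16 in R 4.3.3 (TMM, quasi-likelihood, Benjamini-Hochberg over 10883 genes averaging at least 1 FPKM). Alternatives were other scalings and filters, DESeq2 1.42.0, limma 3.58.1 on log2 FPKM or TPM, a replicate block and leaving out each library. Fold changes on log2(value + pseudocount) scales understate those of low genes. CPM values come from the filtered fit, except for genes under the filter and for summed lists, which come from the fit without it. Intervals of folds are normal intervals from the standard error. In counts simulated for EX against Con with 10883 genes, 92.7% of 200 changed genes were recovered with edgeR and 5.10% of calls were false. The 92.7% is for all 200 genes together. Recovery at the sizes of change seen in the members was not tested. The members and lists were chosen with earlier results of these data known. Named genes are all members, the 2 largest called increases and decreases of each pathway list, markers where a result turns on them, and the 3 genes nearest in pattern to the most raised and most lowered member. With 1 library per mouse, the edgeR p-values set the group difference against the spread between mice, estimated with information from all genes tested. No batch is given in the labels. Overlaps of exons came from GENCODE M21 on GRCm38, and protein sequences were not analysed here.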

Additional observations from a re-analysis of the deposited data

How the results depend on the processing

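The calls of G0s2 and Plin4 held in all fits. The number of members called higher was 2 in each fit with all libraries and 2 to 3 with 1 library left out, and the number called lower was 1 and, with 1 library left out, 0 to 1, since Pnpla2 was lost without EX replicate 3. Of members that were not called, some changed sign with 1 library left out, with log2 changes from -0.14 to 0.020 for Plin3, from -0.13 to 0.054 for Plin5, from -0.088 to 0.0060 for Lipe, from -0.043 to 0.038 for Mgll and from -0.024 to 0.33 for Hilpda. The cause was not tested. Pathway genes called higher numbered 8, against 5 with totals without the 20 most abundant genes, 5 with a filter of a mean of 5 FPKM, 5 with limma on log2(FPKM + 0.1) or log2(FPKM + 1) and 4 with limma on log2(TPM + 0.1). Those called lower numbered 17, against 30, 22, 26, 26 and 38. With 1 library left out they were 6 to 7 and 15 to 21. Over all genes the calls were 991 higher and 958 lower, against 772 and 1259 with totals without the 20 most abundant genes, 411 and 1037 with limma on log2(FPKM + 0.1), 411 and 1032 on log2(FPKM + 1), and 340 and 1684 with limma on log2(TPM + 0.1), where the median of all genes was -0.091. DESeq2 called 1228 genes, against 1949 in edgeR. Replicate numbers did not pair the mice: same-numbered mice had correlations of deviations of -0.0859, -0.0521 and -0.0829, and no mouse correlated best with its own number. The replicate block gave 2 members higher and 1 lower, and 1782 genes in all. Hilpda had the lowest counts of the members, 35 to 59 a library, and the part of depth in its missing call was not tested.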
